A study of Homo sapiens with 6 samples.

Results

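The RNA exosome degrades RNA from its 3′ end in the nucleus and the cytoplasm. Its subunits EXOSC1 to EXOSC10 were taken by their gene symbols, and all 10 were present among the 8121 genes with a translational efficiency and among the 9570 transcripts with a ribosome occupancy. The values come from ribosome profiling, which sequences ribosome-protected fragments of mRNA (RPFs), in HEK293 cells, an established human embryonic kidney line. The study holds 1 condition, with 3 RPF libraries and 3 total RNA libraries, in which each numbered pair came from the same lysate. The labels give control siRNA as the treatment of every sample, and the study's methods give cycloheximide, which stalls elongating ribosomes, before lysis. With a single condition the data compare mRNAs with each other and not treatments. The labels do not say whether the 3 replicates were separate cultures on separate days, so p-values measure the spread between these samples, which may be technical. Of 10 markers of HEK293 cells 9 were listed in at least 1 of the tables, and of 8 markers of other cell types 1 was (COL1A1).

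The exosome core is a barrel without nuclease activity in human cells. EXOSC4 to EXOSC9, which have the fold of bacterial RNase PH, form a ring. EXOSC1, EXOSC2 and EXOSC3, which carry S1 RNA-binding domains, form a cap through which RNA is threaded. Degradation is done by enzymes attached to the core, DIS3 or DIS3L at its base and the distributive exonuclease EXOSC10 in the nucleus and nucleolus, and helicases such as MTREX and SKIC2 feed RNA into it. Each core subunit is present once in the complex. Of the 10 mRNAs described here, only that of EXOSC10 encodes a nuclease, and the enzymes DIS3 and DIS3L are described with the cofactors.

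The genes lie apart in the genome. In GENCODE 44, as lifted to GRCh37 (hg19), the transcript of EXOSC1 lies on chromosome 10 from 99195666 to 99205763 (minus strand, 8 exons), that of EXOSC2 on chromosome 9 from 133569167 to 133580279 (plus strand, 9 exons) and that of EXOSC3 on chromosome 9 from 37779711 to 37785061 (minus strand, 4 exons). The ring subunit EXOSC4 lies on chromosome 8 from 145133575 to 145135551 (plus strand, 3 exons), EXOSC5 on chromosome 19 from 41892279 to 41903264 (minus strand, 6 exons) and EXOSC6 on chromosome 16 from 70280681 to 70285843 (minus strand, 1 exon). EXOSC7 lies on chromosome 3 from 45017736 to 45052963 (plus strand, 8 exons), EXOSC8 on chromosome 13 from 37574923 to 37583751 (plus strand, 11 exons) and EXOSC9 on chromosome 4 from 122722478 to 122738176 (plus strand, 12 exons). EXOSC10 lies on chromosome 1 from 11126675 to 11159926 (minus strand, 25 exons). An antisense gene, EXOSC10-AS1, overlaps EXOSC10. The RNA library kit keeps the strand, and no source used here names the strand setting of the counting.

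The coding sequences (CDS) differed in base composition. EXOSC6, the member without introns, had a CDS GC content of 78.3%, and 0 of the 8740 transcripts that could be matched to the annotation had a higher one. EXOSC4 had 64.1% and EXOSC5 61.4%, while EXOSC8 and EXOSC9 had 41.8% and 42.0%, below the median of 51.1%. Some of the sequence is shared with other annotated genes. Of the 30-mers of the EXOSC4 CDS 95.3% also occur in annotated transcripts of another gene, read in the same orientation. For the EXOSC3 CDS this share was 25.7%. For EXOSC7 the share was 3.78%, for EXOSC8 1.12%, and for the other 6 members it was 0. Whether these are copies elsewhere in the genome or overlapping annotations was not tested. How reads on them were assigned depends on the authors' alignment and annotation, so the values of EXOSC4, and to a lesser degree EXOSC3, are uncertain.

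The start codons stand in similar surroundings. A purine 3 nt before the ATG was present in 10 of 10 members (86.0% of 8667 matched transcripts) and a G just after the ATG in 8 of 10 (53.2%), the exceptions being EXOSC6 and EXOSC9. The sequences around the annotated start codons, taken from the GENCODE 44 models with the ATG in capitals, are shown because the footprints on these codons differ widely, as described further on.
EXOSC1: gcggcaatcATGgcg
EXOSC2: ggcgccaagATGgcg
EXOSC3: gagcccgcgATGgcc
EXOSC5: ctcggcgcgATGgag
EXOSC6: agaaccgccATGcct
EXOSC7: ctcggcagcATGgcg
EXOSC8: ggcgggaagATGgcg
EXOSC9: cccaacaccATGaag
EXOSC10: gctgaaaaaATGgcg

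Translational efficiency (TE), the deposited ratio of RPFs to total RNA, differed 7.79-fold between the highest and the lowest of the 10 subunits. The ring subunits EXOSC8 and EXOSC7 were highest, the nuclear exonuclease EXOSC10 came next, and all 3 cap subunits lay below the median of all values, 0.383. The middle part of all genes, between the quartiles, spanned 0.198 to 0.825. Tested with limma against that median on log2(TE + 0.01), with Benjamini-Hochberg adjustment over all genes at an FDR of 0.05, 4 members were higher, 5 were lower and 1 was not called. This test calls 89.3% of all 8121 genes (44.7% higher and 44.6% lower), so 9 calls of 10 lie near the background. The median log2 difference of the members was -0.23, beside -0.00 over all genes. The TE table gives no counts, so the depth behind each ratio is unknown.

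In the cap, EXOSC1, the counterpart of yeast Csl4, had a TE of 0.247, 0.255 and 0.253 in replicates 1, 2 and 3, a mean of 0.251 ± 0.00433 (SD, n = 3). For EXOSC2, the cap subunit corresponding to yeast Rrp4, the replicates gave 0.315, 0.300 and 0.298, with a mean of 0.304 ± 0.00960. EXOSC3, whose mutation causes pontocerebellar hypoplasia, gave 0.198, 0.229 and 0.218, with a mean of 0.215 ± 0.0159. The values of these 3 subunits did not overlap with each other, and every replicate of each lay below the median of all genes. By limma the log2 difference from that median was -0.59 ± 0.048 (SE) for EXOSC1 (adjusted p = 0.000145), -0.32 ± 0.050 for EXOSC2 (adjusted p = 0.00201) and -0.81 ± 0.061 for EXOSC3 (adjusted p = 0.000107).

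The ring subunits covered the whole range of the complex. EXOSC4 had the lowest TE, 0.175, 0.164 and 0.164, with a mean of 0.168 ± 0.00617 (SD, n = 3), 1.15 log2 units under the median. EXOSC5 gave 0.305, 0.406 and 0.340, with a mean of 0.350 ± 0.0509, and EXOSC6 gave 0.196, 0.295 and 0.223, with a mean of 0.238 ± 0.0512. Replicate 2 was the highest in both EXOSC5 and EXOSC6, and only in EXOSC5 did a replicate pass the median of all genes. EXOSC7 gave 1.12, 1.07 and 0.890, with a mean of 1.03 ± 0.120. For EXOSC8 the values were 1.40, 1.28 and 1.23, with a mean of 1.31 ± 0.0871, and for EXOSC9, an autoantigen in patients with polymyositis and scleroderma, they were 0.448, 0.411 and 0.479, with a mean of 0.446 ± 0.0337. EXOSC7, EXOSC8 and EXOSC9 lay above the median of all genes in all 3 replicates, and the lowest value of EXOSC7 exceeded the highest of every other ring subunit except EXOSC8.

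By limma with Benjamini-Hochberg adjustment EXOSC4 was lower than the median of all genes by -1.15 ± 0.051 (SE) on the log2 scale (adjusted p = 1.44e-05) and EXOSC6 by -0.68 ± 0.117 (adjusted p = 0.00312). EXOSC7 was higher by 1.39 ± 0.080 (adjusted p = 3.71e-05) and EXOSC8 by 1.74 ± 0.059 (adjusted p = 6.22e-06). For EXOSC5 the difference was -0.14 ± 0.088 (adjusted p = 0.202, limma). It was called lower, at -0.32, when the 10% of genes with the lowest TE were left out (adjusted p = 0.0181), at -0.30 with the mean of all values as the reference (adjusted p = 0.0233) and at -0.25 without replicate 2 (adjusted p = 0.0370). EXOSC9 was called higher at 0.21 ± 0.062 (adjusted p = 0.0231, limma). That call was lost with the same filter (0.02, adjusted p = 0.726), with the mean as the reference (0.04, adjusted p = 0.516) and without replicate 1 (0.20, adjusted p = 0.0787) or replicate 3 (0.17, adjusted p = 0.103). The split of the members under that filter or that reference was 3 higher and 6 lower, in place of 4 and 5.

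The ring is built of pairs that each join a subunit resembling archaeal Rrp41 (EXOSC4, EXOSC5 and EXOSC6) to one resembling archaeal Rrp42 (EXOSC9, EXOSC8 and EXOSC7, in the same order). In each pair the first kind had the lower TE in all 3 replicates, EXOSC4 below EXOSC9, EXOSC5 below EXOSC8 and EXOSC6 below EXOSC7. The highest single value of EXOSC4 to EXOSC6 was 0.406 and the lowest of EXOSC7 to EXOSC9 was 0.411, so that these sets of 3 mRNAs did not overlap, by a small margin. This grouping was made after the values had been seen and carries no test.

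EXOSC10, the exonuclease that trims rRNA and other nuclear RNAs, had a TE of 0.690, 0.629 and 0.609, with a mean of 0.643 ± 0.0418 (SD, n = 3). It was higher than the median of all genes by 0.73 ± 0.058 on the log2 scale (adjusted p = 0.000133, limma). Its values stood between those of EXOSC7 and EXOSC9 in every replicate.

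Ordered from the highest to the lowest mean TE, the subunits were EXOSC8, EXOSC7, EXOSC10, EXOSC9, EXOSC5, EXOSC2, EXOSC1, EXOSC6, EXOSC3 and EXOSC4. Among neighbours in this order, EXOSC5 and EXOSC2, EXOSC1 and EXOSC6, and EXOSC6 and EXOSC3 overlapped and differed by less than the larger SD of the pair, and their order held in 2 of 3 replicates. The other neighbours did not overlap and kept their order in 3 of 3 replicates. With 3 replicates, a two-sided exact permutation test between 2 genes cannot give a p under 0.1, so the order is a description.

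**Figure D1:**
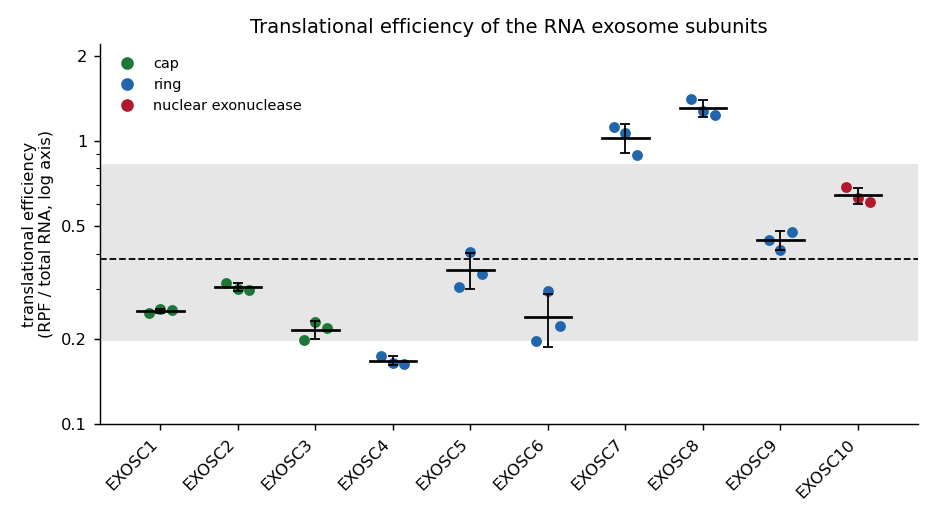
TE (RPF over total RNA, log axis) of each subunit. Points are the 3 replicates, horizontal bars the mean, error bars the SD between replicates, and colours give the role. The dashed line is the median of all values (0.383) and the grey band spans the quartiles of all gene means (0.198 to 0.825). EXOSC7 and EXOSC8 lie above the band, EXOSC4 below it, and the other 7 means within it.

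The occupancy table gives, for each codon, in-frame RPFs divided by library size and by the mRNA level of the transcript, with the 3 replicates combined by the authors. Low values in a transcript are sums of whole multiples of 3 amounts, each the worth of 1 read in 1 library. For every codon of the 10 members these gave back whole numbers of reads, in 3 components that stand for the libraries. The components could not be assigned to replicate numbers, nor matched from one subunit to the next, and the occupancy itself is the authors' combined value. The members held 61730 CDS reads in all, from 592 on EXOSC6 to 19203 on EXOSC10. The worth of a read also gave the mRNA level of each transcript relative to the median transcript, which is per length because the authors divided by TPM.

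Relative mRNA levels of the 10 subunits were close to each other. All 10 lay above the median transcript (set to 1), from 2.16 for EXOSC3 to 5.18 for EXOSC2, a 2.40-fold range. In the cap EXOSC1 stood at 2.75. In the ring EXOSC4 was at 2.99, EXOSC5 at 4.21, EXOSC6 at 5.01, EXOSC7 at 3.14, EXOSC8 at 2.65 and EXOSC9 at 4.29. EXOSC10 was at 4.43. The mRNA with the highest TE, EXOSC8, was among the least abundant of the 10, but the least abundant, EXOSC3, had a low TE (0.215). EXOSC6, with the second highest mRNA level, was among the low ones in TE, while EXOSC10, at 4.43, had a TE of 0.643. Low TE thus occurred toward both ends of the range of mRNA levels. Toward the upper end EXOSC10 lay above the median TE of all genes but within the quartiles. EXOSC8 and EXOSC7, with the highest TE, had mRNA levels of 2.65 and 3.14. TE and this mRNA level rest on the same total RNA libraries.

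Mean occupancy per CDS codon, which is ribosomes relative to mRNA, spread further than mRNA level. EXOSC8 was highest at 0.0936 (0.0900 to 0.0970 over the 3 components), above 81.3% of transcripts. EXOSC9 had 0.0756 (0.0727 to 0.0788), EXOSC3 0.0645 (0.0614 to 0.0671) and EXOSC1 0.0615 (0.0587 to 0.0667). EXOSC2 had 0.0552 (0.0545 to 0.0562), EXOSC10 0.0532 (0.0508 to 0.0562) and EXOSC7 0.0473 (0.0443 to 0.05002). These 7 lay above the median transcript, 0.0450. The other 3, all ring subunits, lay below it: EXOSC5 at 0.0332 (0.0306 to 0.0349), EXOSC4 at 0.0171 (0.0162 to 0.0179) and EXOSC6 at 0.00465 (0.003255 to 0.00632). EXOSC6 ranked at the 1.19 percentile of all transcripts, and 65.9% of its codons held no read, beside 14.1% for EXOSC8 and a median of 43.4% over all transcripts. The 3 members below the median are the ring subunits of the Rrp41 kind. They are also the 3 with the highest CDS GC content, and the part of base composition in these values was not tested.

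Footprint density, the number of in-frame reads per CDS codon, follows from mRNA level and occupancy together. EXOSC9 had 29.996 reads per codon, EXOSC2 26.2, EXOSC8 22.8 and EXOSC10 21.7. EXOSC1 had 15.6, EXOSC7 13.5, EXOSC5 12.9 and EXOSC3 12.8. These 8 subunits lay within a 2.35-fold range. EXOSC4 had 4.72 reads per codon and EXOSC6 2.17, which widened the range over all 10 to 13.8-fold, and the median transcript had an estimated 3.93. Leaving out EXOSC4 and EXOSC6 was chosen after their values had been seen.

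**Figure D2:**
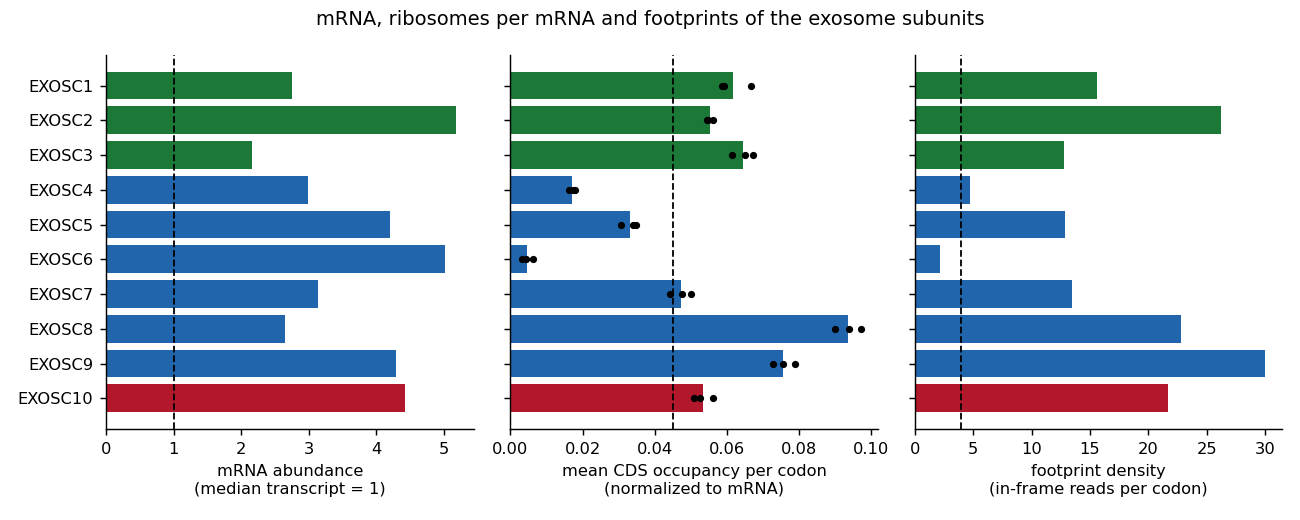
Relative mRNA level (median transcript = 1), mean CDS occupancy per codon and footprint density (in-frame reads per codon) of each subunit, with bars from 0 coloured by role and the median transcript as a dashed line. Black points are the 3 components of the combined occupancy. EXOSC6 has one of the highest mRNA levels (5.01) and the lowest occupancy (0.00465).

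Other complexes give a scale for the range within the exosome. The CCT chaperonin, which folds actin and tubulin and holds equal numbers of its subunits, spanned 1.68-fold over 8 subunits in density and 5.48-fold in TE, from CCT3 at 0.445 ± 0.00943 to CCT4 at 2.44 ± 0.0736 (SD, n = 3). The 20S proteasome core spanned 5.23-fold in density over 13 listed subunits and 15.7-fold in TE, from PSMB5 at 0.331 ± 0.00952 to PSMB2 at 5.20 ± 0.191. For the CCR4-NOT deadenylase the range was 14.8-fold in density over 11 listed genes and 10.7-fold in TE over 10, from TNKS1BP1 at 0.0814 ± 0.00464 to CNOT11 at 0.870 ± 0.00920. TNKS1BP1 was also the lowest of that list in density, at an estimated 0.927 reads per codon, and so sets the lower end of both ranges. The CCR4-NOT list was taken for its part in mRNA decay and not for equal numbers of its subunits. For the exosome the same estimate of density gave a 14.0-fold range. In all but CCR4-NOT and the exosome the density range was under the TE range. On the log2 scale the SD of density between subunits was 1.19 for the exosome, 0.23 for CCT, 0.57 for the 20S core and 1.24 for CCR4-NOT. By limma 8 of 8 CCT genes were called, all higher, 10 of 13 genes of the 20S core were higher and 1 lower, and of 10 CCR4-NOT genes 4 were higher and 5 lower, beside the 44.7% higher and 44.6% lower over all genes. With the mean of all values as the reference the CCR4-NOT split was 2 higher and 5 lower, and with the 10% of genes with the lowest TE left out it was 2 and 4 of 9. Under either setting 7 of 8 CCT genes were higher, and CCT3 was not called (adjusted p = 0.417 with the mean and 0.657 with the filter, limma). That call was also lost without replicate 2 (adjusted p = 0.0549, limma). These are descriptions of small lists, and no test of a difference between complexes was made.

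**Figure D3:**
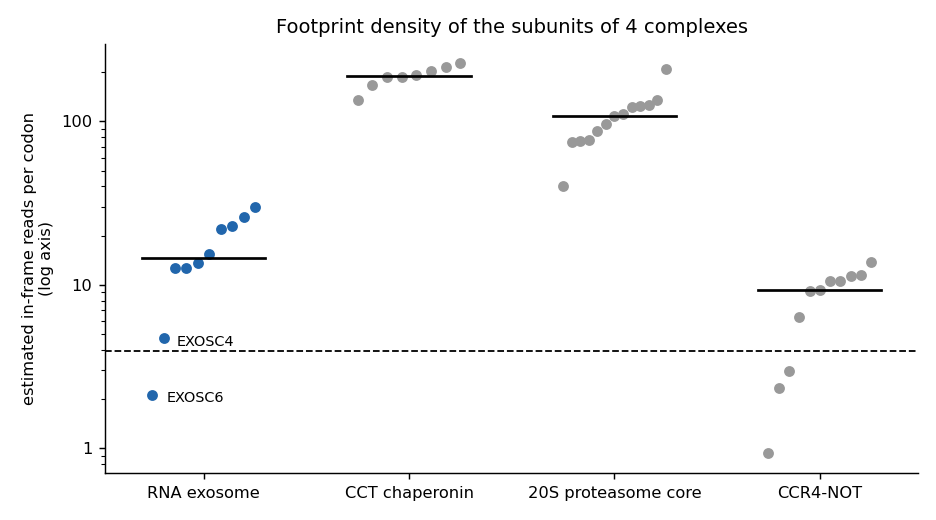
Estimated in-frame reads per CDS codon (log axis) for the subunits of 4 complexes. Each point is a gene, horizontal bars are medians and the dashed line is the median transcript (3.93). The exosome points lie together except for EXOSC4 and EXOSC6, and the CCT points span 1.68-fold.

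TE and occupancy ranked the subunits differently. Over the 6912 genes in both tables Spearman's rho between them was 0.69, and over the 10 subunits it was 0.41. These are descriptions, since both measures rest on the same RPF and total RNA libraries. EXOSC6 had a TE 51.2 times its mean CDS occupancy, a ratio above that of 98.5% of genes, against a median ratio of 7.72. EXOSC7 had 21.7 (90.9% of genes lay below it), and EXOSC3 was at the other end with 3.34 (12.6%). EXOSC6 has the lowest read number of the members, and EXOSC3 shares part of its sequence with another gene. Reads outside the frame are not in the occupancy table, and whether they are in the TE could not be established from the sources used here.

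Ribosomes were spread unevenly along every CDS. The share of occupancy on the 10% of codons with the highest occupancy lay between 50.7% in EXOSC8 and 71.6% in EXOSC6. Reads per codon in the components of a member correlated with Pearson coefficients between 0.71 (EXOSC6) and 0.92 (EXOSC9) over its codons, on log2(reads + 1). These coefficients describe the same transcript counted in 3 libraries.

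The balance between the front and the back of the CDS, split at the middle codon, separated the members into equal sets. EXOSC3 carried most of its ribosomes in the back, with a ratio of mean occupancy in the front to the back of 0.431 (0.426 to 0.436 over the components), from 1063 reads in front and 2465 behind. Of all transcripts 7.74% had a lower ratio. EXOSC4 had 0.644 (0.544 to 0.768), EXOSC6 0.741 (0.634 to 0.821), EXOSC9 0.751 (0.678 to 0.808) and EXOSC2 0.905 (0.899 to 0.910). In these 5 the front was lower in every component. EXOSC7 had the highest ratio, 1.55 (1.47 to 1.61), with 2403 reads in front and 1533 behind. EXOSC5 had 1.42 (1.30 to 1.57), EXOSC10 1.32 (1.27 to 1.35), EXOSC1 1.12 (1.02 to 1.28) and EXOSC8 1.05 (1.02 to 1.08). In these 5 the front was higher in every component, but for EXOSC8 the ratio fell to 0.971 without its highest codon. The median of all transcripts was 1.03, with quartiles at 0.744 and 1.42, and EXOSC3 and EXOSC4 lay below the lower quartile and EXOSC7 above the upper one, also without the highest codon or without the first 5 and last 5 codons. EXOSC5, EXOSC6 and EXOSC9 lay close to a quartile, and their side of it depended on these codons. Without the first 5 and last 5 codons EXOSC5 was at 1.70 and EXOSC9 at 0.719, and without its highest codon EXOSC6 was at 0.848. Over the whole CDS of EXOSC3 27.2% of codons held no read, beside a median of 43.4% over all transcripts. Of its 30-mers 25.7% also occur in transcripts of another gene, and the part of this in the ratio was not tested.

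**Figure D4:**
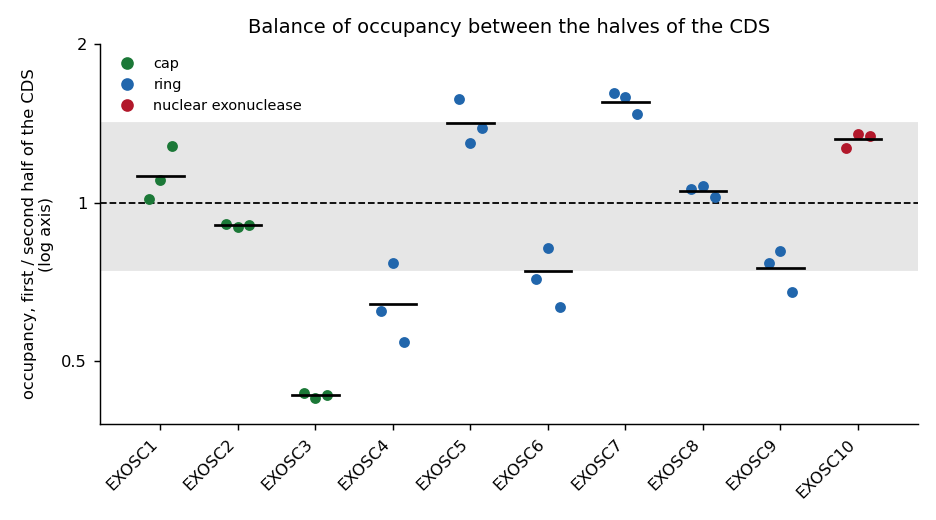
Ratio of mean occupancy in the front to the back of the CDS (log axis) for each subunit. Points are the 3 components, horizontal bars the authors' combined value, the dashed line marks equal occupancy and the grey band spans the quartiles of all transcripts (0.744 to 1.42). EXOSC3, at 0.431, lies furthest from the dashed line, and its components lie within 0.426 to 0.436.

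Single codons stood out in all 10 members. In total 30 codons held over 10 times the mean occupancy of their CDS, and each of the 30 was over 5 times the mean in every component. The codons were picked on the combined value of these same components, so the components are not an independent check. In EXOSC6 such a component can hold very few reads, with 13, 9 and 2 on codon 64. Such codons are common, with at least 1 in 95.8% of transcripts, and the highest codon of the median transcript was at 21.0 times its mean. EXOSC10 had the sharpest peak, codon 298 at 31.7 times the mean with 659 reads, followed by its codon 350 at 28.5 times with 577 reads and codon 100 at 25.2 times with 555 reads. EXOSC9 had its highest at codon 408 (23.0 times, 679 reads), next to a further peak on codon 409, and another at codon 377 (20.3 times, 609 reads). The 5 codons given here with their reads rest on 555 to 679 reads each, while the highest codon of EXOSC6, codon 219, was at 20.7 times the mean with 42 reads.

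In EXOSC5 both leading peaks lay close to the start, codon 12 at 18.0 times and codon 6 at 17.7 times the mean. In EXOSC8 adjacent codons led, codon 10 at 12.1 and codon 11 at 11.8 times the mean. The highest codons of the rest were codon 109 of EXOSC1 (14.5 times), codon 79 of EXOSC4 (14.2 times), codon 257 of EXOSC3 (11.9 times), codon 66 of EXOSC2 (11.7 times) and codon 111 of EXOSC7 (11.4 times). All of these lay under the 21.0 times of the median transcript.

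The sequences around the highest codons are shown because these codons have the highest occupancy of their CDS. In EXOSC2 codon 248 held slightly more reads (313) than codon 66 (310), but codon 66 had the higher occupancy. The codon itself is in capitals with 12 bases of CDS on either side, from GENCODE 44 on GRCh37 and on the strand of the gene. The codon of EXOSC10 lies in exon 8 of 25 (chr1:11147908-11147910), that of EXOSC9 in exon 11 of 12 (chr4:122737589-122737591) and that of EXOSC5 in its exon 1 (chr19:41903198-41903200). That of EXOSC6 lies in its single exon (chr16:70285147-70285149), that of EXOSC1 in exon 5 (chr10:99198445-99198447) and that of EXOSC8 in exon 2 (chr13:37576420-37576422). That of EXOSC3 lies in the last of its exons (chr9:37780733-37780735), that of EXOSC2 in exon 2 (chr9:133570952-133570954) and that of EXOSC7 in exon 4 (chr3:45038655-45038657).
EXOSC1 codon 109: aaggaagatgtcCGAgcaactgaaaaa
EXOSC2 codon 66: agagtaaacaagTTGatctgtgtgaaa
EXOSC3 codon 257: attttagaagctTGTgaacacatgacg
EXOSC5 codon 12: gacgccaaaatcCGTgctgaaaatgga
EXOSC6 codon 219: ctcatgcctgtgCTGaatcaggtggcc
EXOSC7 codon 111: aacaccctctatCGGatatttaacaat
EXOSC8 codon 10: aaaaccgtggaaCCTctggagtattac
EXOSC9 codon 408: ccagacaagaatCCAaagaaaataaga
EXOSC10 codon 298: ctggatgaactcGTGgaactcaacgaa
The codons under these peaks differ from member to member, and no codon was tested for its occupancy.

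**Figure D5:**
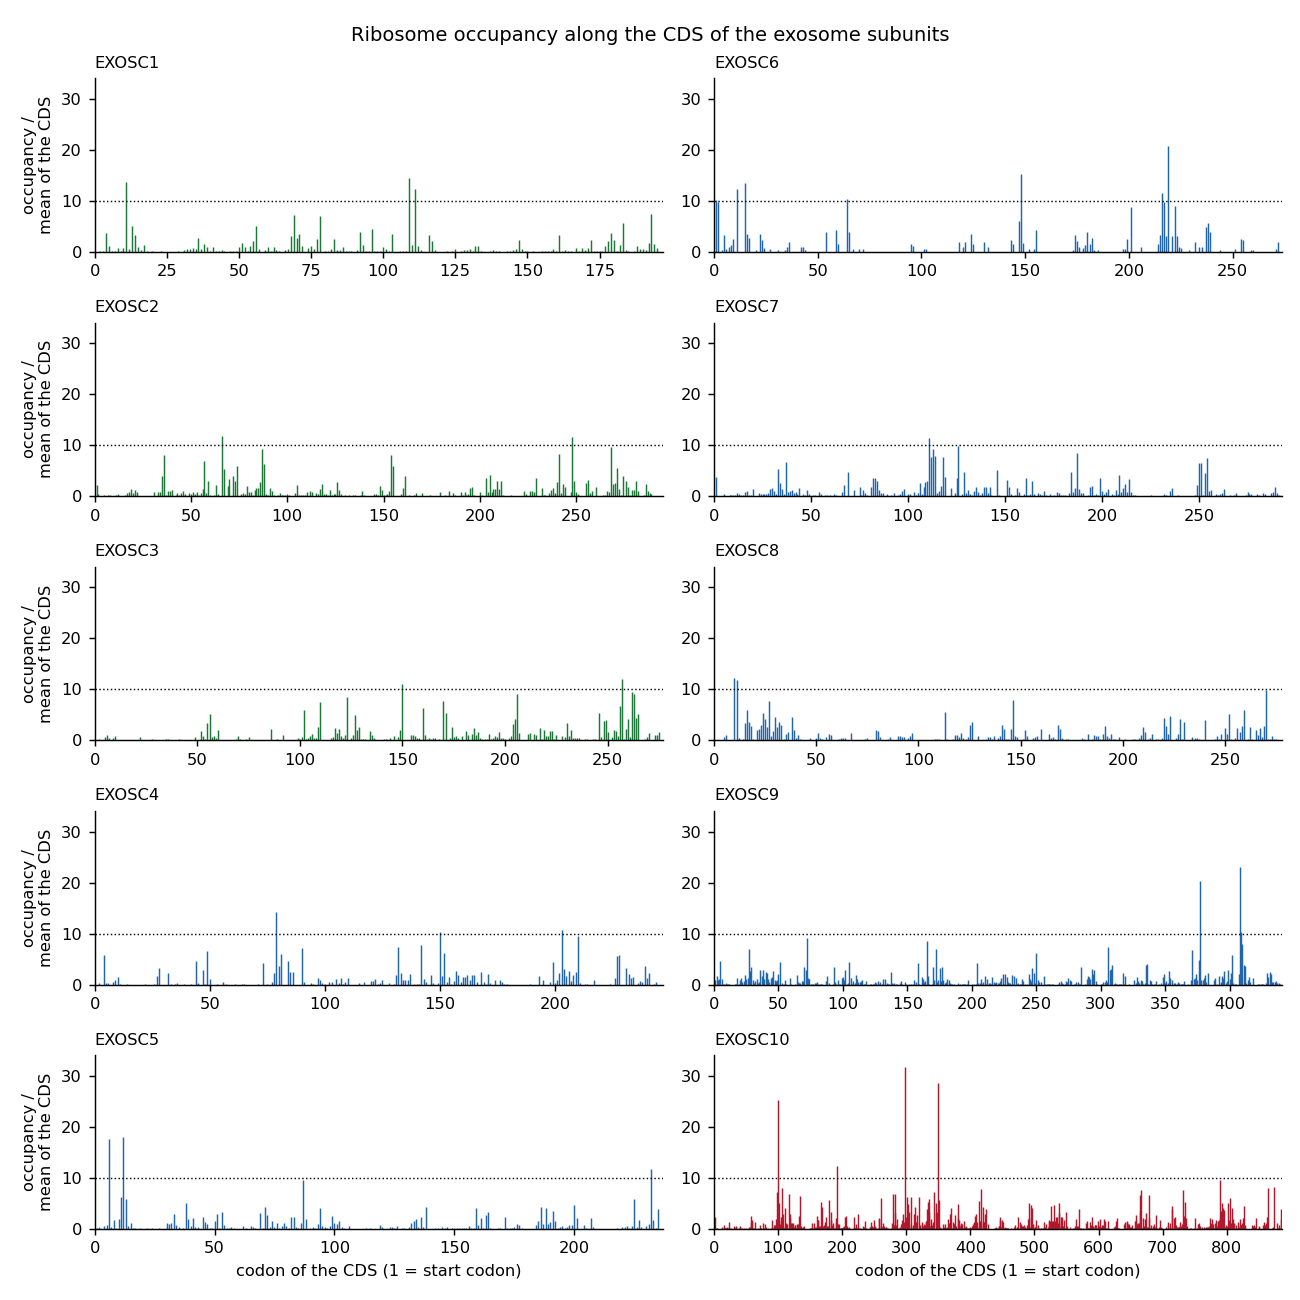
Occupancy of each codon divided by the mean of the CDS, along the CDS of each subunit (codon 1 is the start codon), on the same vertical scale. The dotted line marks 10 times the mean. EXOSC10 has codons at 31.7, 28.5 and 25.2 times the mean, EXOSC3 has fewer reads in its front than in its back, and most codons of EXOSC6 are at 0.

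On the start codon, 7 members had reads and 3 had none, where 40.3% of all transcripts had none. EXOSC2 and EXOSC7 each had 53 reads there, EXOSC10 50, EXOSC9 26 and EXOSC6 22, while EXOSC5 and EXOSC8 had 1 each and EXOSC1, EXOSC3 and EXOSC4 had 0. In EXOSC6 the start codon stood at 10.2 times the mean of the CDS, with 6, 13 and 3 reads in the components, and it was one of the 7 codons of this mRNA over 10 times the mean. In EXOSC7 the components gave 21, 30 and 2 reads, so that 1 library contributed little. EXOSC1 and EXOSC7, at 0 and 53 reads, both carry a purine 3 nt before the ATG and a G after it, and the part of the other bases printed above was not tested. On the stop codon all 10 members had 0 reads, as did 94.5% of transcripts.

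Outside the CDS the mRNAs of the exosome carried few in-frame reads. In the 5′UTR EXOSC8 had 42 reads, EXOSC9 18, EXOSC6 4 and EXOSC2 1, and the other 6 had none, where 22.9% of transcripts had none. Those 6 have short 5′UTRs of 4 to 33 codons in the authors' table, where the median transcript has 56 and EXOSC8 has 85. Of the 2663 transcripts with a 5′UTR of at most 33 codons 51.5% had no read, beside 6 of the 9 members of that length. Of the 42 reads on EXOSC8, 30 (71.4%) lay on 8 neighbouring codons, from 71 to 64 codons before the start codon, with 9, 14 and 7 reads in the components. The 63 codons between them and the start held 11 reads. The mean occupancy of the 8 codons was 0.0160, which is 17.05% of the mean of the CDS. This stretch was picked after the values had been seen, and it carries no test. The authors' 5′UTR of EXOSC8 is longer than the matched GENCODE 44 model, which has 20 nt, so its sequence is not shown. In the 3′UTR EXOSC6 had 10 reads, EXOSC3 2, EXOSC2, EXOSC5, EXOSC7 and EXOSC8 1 each, and the other 4 none, where 42.9% of transcripts had none.

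The enzymes and cofactors that work with the core were followed in a list of 19 genes, of which 18 had a TE and SKIV2L, the helicase SKIC2 of the cytoplasmic Ski complex, had neither measure. By limma 6 were higher and 8 lower than the median of all genes and 4 were not called, beside the 44.7% and 44.6% of all genes. With the mean of all values as the reference the split was 4 higher and 9 lower. The median log2 difference of the list was -0.07. DIS3L, the exonuclease of the cytoplasmic exosome, was the lowest of the list, with a TE of 0.128, 0.111 and 0.131 in the 3 replicates (log2 difference -1.57 ± 0.065 SE, adjusted p = 1.19e-05 by limma). Its nuclear counterpart DIS3 gave 0.406, 0.395 and 0.379, with a difference of 0.04 ± 0.051 (adjusted p = 0.525, limma). With the 10% of genes with the lowest TE left out it was called lower, at -0.15 (adjusted p = 0.0344), and with the mean as the reference the difference was -0.13 (adjusted p = 0.0567). DIS3 lay above DIS3L in every replicate, without overlap.

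DIS3L2, a related exonuclease that works without the core on uridylated RNA, gave 0.233, 0.213 and 0.355 and was lower than the median by -0.54 ± 0.150 on the log2 scale (adjusted p = 0.0191, limma). That call was lost without replicate 1 (-0.47, adjusted p = 0.0791) and without replicate 2 (-0.41, adjusted p = 0.0716). C1D, which binds EXOSC10, was the highest of the list, at 1.66, 2.03 and 2.21 (2.32 ± 0.092, adjusted p = 9.80e-06, limma). MPHOSPH6, which joins the helicase to the core, gave 0.950, 0.831 and 1.05, and SKIV2L2 (MTREX), the nuclear helicase itself, gave 0.934, 0.853 and 0.868. Both were higher than the median of all genes, by 1.27 ± 0.079 and 1.19 ± 0.054 (adjusted p = 5.05e-05 and 1.57e-05, limma). C1D, MPHOSPH6, SKIV2L2 and EXOSC10, all of the nuclear exosome, were each called higher.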

How the data were processed

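Ribosome profiling of HEK293 cells gave 3 RPF and 3 total RNA libraries, and the numbers 1 to 3 come from the labels. The submitters' processing notes name cutadapt 1.16, Bowtie 1.1.2, TopHat2 2.1.1, HTSeq 0.9.1 and hg19, while the study's methods name Hisat2 for total RNA. TE was deposited as a ratio, RPFs over total RNA, for 8121 genes and 3 replicates, and no source used here gives the formula of the authors. RPF and total RNA of a replicate share a lysate, so the pairing is part of that ratio. The deposited occupancy table holds a signal per codon for 9570 transcripts: RPF counts of the authors divided by library size and TPM, in-frame reads with the replicates combined. The CDS lists of 31 transcripts were broken over lines and were rejoined.

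The test of TE used limma 3.58.1 and R 4.3.3 (empirical Bayes, two-sided) on log2(value + 0.01) after subtracting the median over the table, Benjamini-Hochberg adjusted over all genes at an FDR of 0.05 and no filter. Fold changes on this scale understate those of low genes. Alternatives were another pseudocount or none, leaving out the 10% of genes with the lowest TE, the mean as reference, a replicate block and leaving out each replicate. From the low values of 9521 transcripts (99.5%) the worth of a read in each of 3 libraries was recovered at a relative tolerance of 1e-10. Every codon of the members gave whole reads, and for other transcripts reads were estimated by dividing by the average worth. Both procedures were tested on simulated data. The relative mRNA level is the inverse of the geometric mean of the 3 worths, divided by that of the median transcript. Reads are footprints and not independent ribosomes, and ranges over components hold no biological error beyond that of the 3 libraries.

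Sequences were matched by symbol and CDS length (8740 transcripts, 91.3%, and 10 of 10 members) to GENCODE 44 lifted to GRCh37. No sequence from chromosome 8 is shown. Python 3.11.15, numpy 2.4.6, pandas 2.3.3 and matplotlib 3.10.9 were used. Named genes are the 10 members, 7 cofactors with the highest and lowest of their list, and the highest and lowest TE of each compared complex. The members and lists were chosen with earlier results of these data known.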

Additional observations from a re-analysis of the deposited data

How the results depend on the processing

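Of 159 values recomputed under an alternative, 122 were kept, 29 moved, 4 lost a call, 3 gained one and 1 changed sign. A TE difference was kept if its direction and its side of the threshold held. Occupancy values were kept if they moved by less than the spread of the components. Counts of genes called were kept if they stayed within a set fold of the main count, which is a looser rule. The fold of footprint density was counted as moved without such a comparison. The change of sign was the front to back balance of EXOSC8, -0.042 on the log2 scale without its highest codon. The calls lost and gained were those of EXOSC9 and EXOSC5 given above, and the calls of the other 8 members held under all 8 alternatives for TE. With the replicate block, which centres each replicate on its own median, 9 members, 14 cofactors and 7265 genes were called, where the fit without it called 9, 14 and 7249. Leaving out a replicate gave 8 to 10 members, 13 cofactors and 7015 to 7091 genes. With the mean as the reference the median of all genes moved to -0.17 on the log2 scale, and 3295 genes were higher and 4026 lower. The fold between the highest and the lowest footprint density fell from 13.8 to 2.35 without EXOSC4 and EXOSC6, an alternative chosen after seeing the data. The median over codons in place of the mean moved the occupancy of all 10 members, down to 0 for EXOSC6. Depth limits EXOSC6 most, with 592 CDS reads, and the combined occupancy allows no test between members.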

Other observations

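The occupancy table adds to the TE of the cofactors. C1D, which binds EXOSC10, had a mean CDS occupancy of 0.311 at an mRNA level of 1.25 relative to the median transcript, more than 3 times the occupancy of any of the 10 exosome subunits at a lower mRNA level than any of them. MPHOSPH6 had 0.133 at an mRNA level of 2.55, and the nuclease DIS3 had 0.109 at 1.98. SKIV2L2, the nuclear helicase MTREX, had 0.0651 at 4.58, which lies within the range of the subunits in both measures. DIS3L2 had 0.0653 at an mRNA level of 0.456. DIS3L was not listed in this table. These values combine the replicates and carry no error. Over the list of cofactors with a value, relative mRNA levels spanned 13.3-fold, beside 2.40-fold over the 10 subunits.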
